A study of Mus musculus with 8 samples.

Results

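Medullary thymic epithelial cells (mTECs) that express the chemokine CCL21 and those that express the cytokine receptor RANK were compared in 6 of the 8 RNA-sequencing libraries of the series, 3 of CCL21+RANK- and 3 of CCL21-RANK+ cells. The 6 libraries were grouped by their labelled sort fraction, and they and the gene lists were chosen with earlier results of these data known. All genes that passed the expression filter were tested, with weight on transcription factors, receptors, and secreted factors. All libraries were made from RANK-Venus/CCL21a-tdTomato mouse embryos at embryonic day 17 (E17), so both groups carry a tdTomato reporter knocked into *Ccl21a* and a Venus transgene reporting *Tnfrsf11a*, the gene for RANK. CD45-EpCAM+ cells were sorted by the 2 reporters, and the group names therefore refer to reporter signals. The remaining 2 libraries of the series are CCL21-RANK- TECs, and their levels are given only where they place a gene. The labels do not say whether the libraries of a group come from separate embryos or pools, so p-values measure only the spread between these samples.

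CCL21 attracts developing thymocytes into the thymic medulla through the receptor CCR7. RANK is the receptor that drives mTECs, through the NF-kB pathway, toward cells that display self-antigens of other tissues, and mature mTECs include mimetic cells that use the transcription factors of peripheral lineages. Cortical TECs, in contrast, supply the Notch ligand, chemokine, and cytokine signals of early thymocyte development.

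The libraries held 59677315, 46003128, and 55116911 counts for CCL21+RANK- TECs and 57286762, 50146730, and 42751839 counts for CCL21-RANK+ TECs. Levels are given as RPKM, the CPM of a gene divided by its exon length in kilobases. The number of genes with at least 1 count was 21270, 21442, and 20460 for CCL21+RANK- and 26923, 24113, and 24992 for CCL21-RANK+ TECs. More genes were thus detected in each CCL21-RANK+ library, most of all in replicate 1. Across the 6 libraries the totals do not follow that order, but replicate 1 also had the largest total of the CCL21-RANK+ libraries. The part of depth in its number of genes was not tested. The noncoding gene *Gm26917* took 7.52% to 19.4% and *Gm42418* 2.12% to 10.7% of these libraries, and other genes have lower RPKM for it.

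Across all genes, 6617 of 21451 were called (30.8%). A call needed an adjusted p under 0.05 (edgeR quasi-likelihood test, Benjamini-Hochberg), more than 1.5-fold change, and more than 1 RPKM as the mean of the higher group. The calls of the main fit were even in direction, with 3311 (15.4%) higher in CCL21+RANK- and 3306 (15.4%) higher in CCL21-RANK+ TECs. Other settings gave more calls higher in CCL21-RANK+ TECs. The counts were 2942 and 3546 with the size factors of DESeq2, 2981 and 3532 with upper-quartile scaling, and 3288 and 3611 without *Gm26917* and *Gm42418*. Of the 16978 tested protein-coding genes, 6196 (36.5%) were called, 3066 (18.1%) higher in CCL21+RANK- and 3130 (18.4%) higher in CCL21-RANK+ TECs. Positive log2 fold changes denote higher levels in CCL21+RANK- TECs.

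The sort genes followed the labels. *Ccl21a* was at 561, 346, and 305 RPKM in CCL21+RANK- against 152, 95.9, and 78.2 RPKM in CCL21-RANK+ TECs, and *Tnfrsf11a* was at 8.78, 9.44, and 10.3 RPKM in CCL21+RANK- against 111, 93.1, and 107 RPKM in CCL21-RANK+ TECs. Neither gene was absent from the opposite group, and reads of *Ccl21a* are shared with near-identical copies, which makes its level uncertain. The 8 markers of thymic epithelium summed to 4983, 4912, and 5682 RPKM in CCL21+RANK- against 1788, 1961, and 1615 RPKM in CCL21-RANK+ TECs, so the epithelial markers were expressed in both groups, with 6 of 8 called higher in CCL21+RANK- TECs. The sum is mostly keratin, led by *Krt18*. *Epcam*, the surface marker of the sort, was called higher in CCL21-RANK+ TECs, at 78.9, 49.5, and 50.4 RPKM in CCL21+RANK- against 156, 123, and 121 RPKM in CCL21-RANK+ TECs, and the cortical receptor gene *Ly75* was at 101, 97.8, and 128 RPKM in CCL21+RANK- against 5.8, 9.37, and 5.84 RPKM in CCL21-RANK+ TECs.

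Markers of some other cell types differed between the groups. The 6 parathyroid markers, led by *Chga*, summed to 7277, 1823, and 2039 RPKM in CCL21+RANK- against 38.9, 24.1, and 26.4 RPKM in CCL21-RANK+ TECs, with all 6 called higher in CCL21+RANK- TECs (beside 18.1% of protein-coding genes), and CCL21+RANK- replicate 1 stood far above replicates 2 and 3, and above its own sum of thymic epithelium markers. The 8 mesenchyme markers, led by *Col1a1*, summed to 5.42, 3.73, and 2.11 RPKM in CCL21+RANK- against 61.9, 30.2, and 38.3 RPKM in CCL21-RANK+ TECs, and 6 of 8 were called higher in CCL21-RANK+ TECs (beside 18.4%). The 8 myeloid and dendritic cell markers, led by *Adgre1*, summed to 1.09, 0.157, and 0.577 RPKM in CCL21+RANK- against 12.5, 5.41, and 6.67 RPKM in CCL21-RANK+ TECs, with 4 of 8 (*Csf1r*, *Adgre1*, *Cd68*, and *Fcer1g*) called in the same direction. So were 2 of 5 B lineage genes (*Cd79b* and *Ighm*), 2 of 4 neural crest and glia genes (*Sox10* among them), and 2 of 7 thyroid and C cell genes (*Tg* and *Calca*), whereas the thyroid gene *Slc5a5* was called higher in CCL21+RANK- TECs. The T lineage list with 2 of 12 genes (*Cd4* and *Lck*), the endothelial list with 1 of 5 tested (*Tek*), and the erythroid list with 1 of 6 (*Alas2*) were near the protein-coding share of 18.4%. The erythroid list, led by *Hbb-bs*, summed to 6.61, 164, and 59.4 RPKM in CCL21+RANK- against 184, 285, and 300.3 RPKM in CCL21-RANK+ TECs, with a wide spread over the CCL21+RANK- libraries, and its 4 globin genes were not called. Whether these RNAs came from other cells or from the sorted cells themselves was not tested, and in bulk samples fewer cells of a type and less RNA per cell cannot be told apart.

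**Figure D1:**
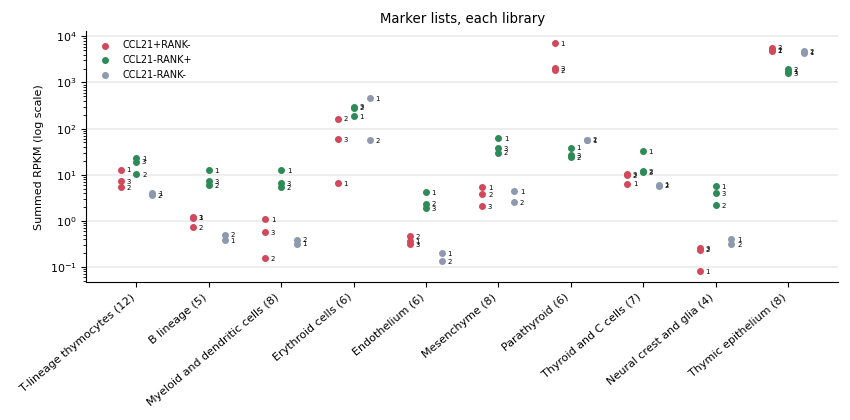
Summed RPKM (log scale) of each marker list in each library, with the number of listed genes in parentheses and the replicate number beside each point. The parathyroid list separates the CCL21+RANK- libraries, with replicate 1 at 7277 RPKM, whereas the mesenchyme, myeloid, and B lineage lists are higher in all 3 CCL21-RANK+ libraries.

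Transcription and secreted factors departed from the balance of protein-coding genes. Transcription factors were called more often in CCL21+RANK- TECs, with 194 of 861 (22.5%) higher there against 113 (13.1%) in CCL21-RANK+ TECs. Receptors were even at 105 (22.2%) and 102 (21.6%) of 473. Secreted factors leaned to CCL21-RANK+ TECs, with 218 of 650 (33.5%) higher there against 122 (18.8%) in CCL21+RANK- TECs. The median log2 fold change was -0.11 over all tested genes, 0.07 over transcription factors, -1.0 over receptors, and -2.61 over secreted factors. With genes at 0 counts in a whole group set to the limit of 3 counts per library, the secreted median was -2.38 and the other 3 medians were as given. The size factors of DESeq2 lowered the median of transcription factors to -0.02 and that of all tested genes to -0.2, a shift not particular to transcription factors. Among genes with at least 10 counts in every library the medians were 0.14, 0.22, and -0.09 for the 3 classes.

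The calls of the 2 directions differed in how far the lower group was from 0. Of all 3130 protein-coding genes called higher in CCL21-RANK+ TECs, 329 had at most 3 counts in every CCL21+RANK- library and 1529 had a mean over 1 RPKM there. In the opposite direction these numbers were 2 and 2608 of 3066. Among the 218 secreted factors called higher in CCL21-RANK+ TECs, 67 had at most 3 counts in every CCL21+RANK- library and 27 had a mean over 1 RPKM there. Of the 122 called in the opposite direction, 0 were at or under 3 counts in every CCL21-RANK+ library and 94 had a mean over 1 RPKM there. For transcription factors the counts were 19 of 113 and 0 of 194 at or under 3 counts in every library of the lower group, respectively, and for receptors 7 of 102 and 0 of 105. When only genes with at least 10 counts in every library were tested, 112 secreted factors were called higher in CCL21+RANK- and 106 higher in CCL21-RANK+ TECs. That filter takes out genes near 0 in 1 group, and with them many of the largest CCL21-RANK+ changes. Under it the CCL21-RANK+ calls were 3 chemokines in place of 14, 5 antimicrobial and mucosal proteins in place of 29, 5 peptide hormones in place of 23, 2 complement and acute-phase genes in place of 13, 4 interleukins in place of 11, 4 Wnt ligands and modulators in place of 11, 19 proteases and inhibitors in place of 38, and 2 chemokine receptors in place of 6.

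**Figure D2:**
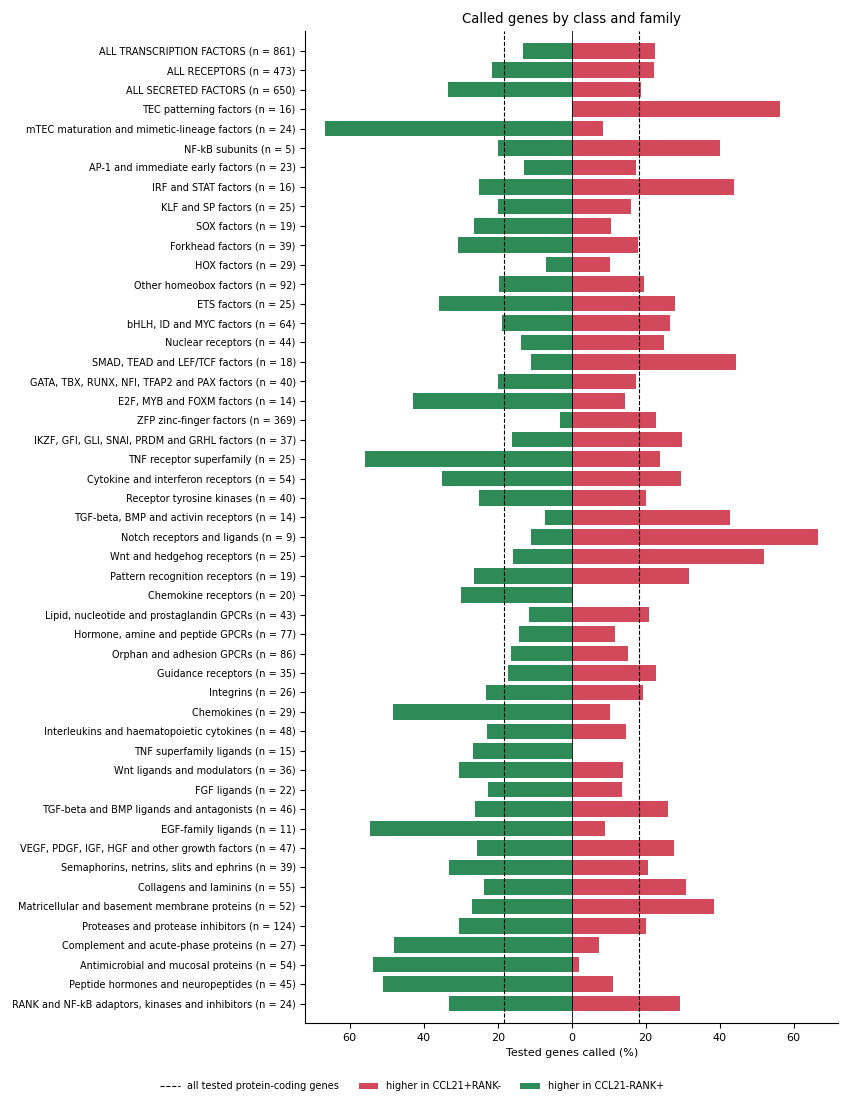
Percentage of tested genes called higher in CCL21+RANK- (right) and in CCL21-RANK+ TECs (left) for each class and family, with the number tested in parentheses. Dashed lines mark the tested protein-coding genes, 18.1% and 18.4%. Patterning factors, Notch genes, and Wnt and hedgehog receptors extend to the right, whereas maturation factors, TNF receptors, chemokines, and antimicrobial proteins extend to the left.

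Lists of transcription factors by role differed in direction, and these lists were chosen with earlier results of these data known. The protein-coding shares given above, 18.1% and 18.4%, are the background for every family count given here. Of 16 factors that pattern the pharyngeal pouch and the early thymic epithelium, 9 were higher in CCL21+RANK- TECs and 0 in CCL21-RANK+ TECs, beside 18.1% and 18.4% of protein-coding genes. Of 24 factors of mTEC maturation and mimetic lineages, 16 were higher in CCL21-RANK+ against 2 (*Irf8* and *Pou2f3*) in CCL21+RANK- TECs, with the latter count at 1 without CCL21-RANK+ replicate 3.

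Among maturation factors, *Fezf2* (chromosome 14, 12342094 to 12348189), which directs self-antigen expression in mTECs, was at 0.319, 0.164, and 0.0893 RPKM in CCL21+RANK- against 98.9, 70.7, and 82.2 RPKM in CCL21-RANK+ TECs. All 3 CCL21+RANK- libraries were below 1 RPKM and far from the other group (log2 fold change -8.62, SE 0.69, edgeR adjusted p = 6.96e-06), with a log2 fold change of -9.27 without CCL21+RANK- replicate 1. *Spib*, an ETS-family factor of mature mTECs and lymphoid cells, was at 13.2, 13.4, and 12.9 RPKM in CCL21+RANK- against 146, 120.4, and 125 RPKM in CCL21-RANK+ TECs (log2 fold change -3.18, SE 0.11, edgeR adjusted p = 1.25e-07). It differed from *Fezf2* in that CCL21+RANK- TECs also expressed it. *Insm1*, a zinc-finger factor of neuroendocrine cells, was at 0.589, 0.905, and 0.638 RPKM in CCL21+RANK- against 176, 194, and 213 RPKM in CCL21-RANK+ TECs (log2 fold change -7.98, SE 0.60, edgeR adjusted p = 4.66e-06), the highest mean among the named factors of this direction. *Cdx1*, a homeobox factor of intestinal epithelium, was at 0.124, 0.41, and 0.166 RPKM in CCL21+RANK- against 188, 144, and 159 RPKM in CCL21-RANK+ TECs (log2 fold change -9.38, SE 0.69, edgeR adjusted p = 4.2e-06), and its log2 fold change was -10.08 without CCL21+RANK- replicate 2. Its relative *Cdx2* had 1 count in all CCL21+RANK- libraries and was at 3.6, 1.72, and 2.18 RPKM in CCL21-RANK+ libraries, and was 934-fold higher in summed CPM (counting interval 167 to 36918). These factors were low in the CCL21-RANK- libraries too, with *Insm1* at 1.37 and 0.239 RPKM and *Spib* at 5.78 and 6.27 RPKM.

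Several CCL21-RANK+ factors were not detected or had few counts in CCL21+RANK- TECs. *Nkx2-6*, a homeobox factor of the pharyngeal pouches and heart, had 0 counts in the 3 CCL21+RANK- libraries and was at 10.3, 5.64, and 6.85 RPKM in CCL21-RANK+ libraries, at least 152-fold higher against a limit of 3 counts per library. The neurogenic bHLH factor *Neurog1* and the nuclear receptor *Nr0b1*, a factor of adrenal development, were also at 0 and were at least 54.97-fold and at least 48.6-fold higher in CCL21-RANK+ TECs. *Foxb2* and *Hoxb9* were likewise at 0 in CCL21+RANK- TECs, at least 51.4-fold and at least 52.1-fold (at least 32.1-fold without CCL21-RANK+ replicate 1) higher in CCL21-RANK+ TECs, although the call of *Hoxb9* was lost without CCL21-RANK+ replicate 1 because its mean was then under 1 RPKM, the reason also for *Sox10*, *Klf1*, *Sstr5*, *Nlrp6*, *Lta*, *Fgf4*, *Crispld2*, and *Saa1* below. *Spic*, an ETS factor of red pulp macrophages, had 1 count in CCL21+RANK- TECs and was 838-fold higher in summed CPM (counting interval 150.0 to 33154). The neural crest factors *Tfap2b* and *Sox10* were at 3.39, 2, and 1.62 RPKM and 1.16, 1.01, and 0.851 RPKM in CCL21-RANK+ libraries, against at most 0.00859 RPKM in every CCL21+RANK- library. *Sox10* was not called without CCL21-RANK+ replicate 1, and 2 of 4 markers of neural crest and glia were called higher in CCL21-RANK+ TECs. The erythroid factors *Gfi1b* and *Klf1* were at 2.39, 1.61, and 1.27 RPKM and 2, 0.743, and 0.994 RPKM in CCL21-RANK+ libraries, with *Klf1* not called without CCL21-RANK+ replicate 1, and the erythroid marker sums were also higher there. In CCL21+RANK- libraries *Gfi1b* had 5, 0, and 0 counts and *Klf1* had 0, 0, and 8 counts. Their log2 fold changes, -6.51 and -5.12, ranged from -10.41 to -5.92 and from -9.65 to -4.53 without 1 library. *Prdm1*, a repressor of activated lymphocytes and epithelial cells, was not called because its mean was under 1 RPKM, at 0.03, 0.039, and 0 RPKM in CCL21+RANK- against 1.02, 0.304, and 0.39 RPKM in CCL21-RANK+ TECs.

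*Irf4*, *Tcf7*, and *Myb* were higher in CCL21-RANK+ TECs from a level above the detection limit. *Irf4*, an interferon regulatory factor of activated lymphocytes, was at 5.15, 2.6, and 2.9 RPKM in CCL21+RANK- against 19.3, 21.98, and 22.5 RPKM in CCL21-RANK+ TECs (5.52-fold). *Tcf7*, a transcriptional effector of Wnt signalling, was 5.83-fold higher at 23.2, 16.5, and 19.3 RPKM, and *Myb*, a factor of haematopoietic progenitors, was 7.5-fold higher at 7.07, 6.24, and 6.56 RPKM. In each case the 2 groups did not overlap. The family of *Irf4* was called in both directions, with 7 of 16 IRF and STAT factors higher in CCL21+RANK- against 4 (*Irf4*, *Irf5*, and *Stat5a* among them) in CCL21-RANK+ TECs. Of 14 factors of the E2F, MYB, and FOXM families 6 were higher in CCL21-RANK+ against 2 (*E2f6* and *Tfdp2*) in CCL21+RANK- TECs. The largest change of the latter direction was *Tfdp2*, a partner of E2F factors, at 6.71, 6.15, and 6.68 RPKM in CCL21+RANK- against 2.21, 2.67, and 2.46 RPKM in CCL21-RANK+ TECs.

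On the CCL21+RANK- side, *Hoxa3* (chromosome 6, 52169062 to 52213336), which the third pharyngeal pouch needs to form a thymus, was at 2.86, 2.66, and 2.93 RPKM in CCL21+RANK- against 0.177, 0.325, and 0.311 RPKM in CCL21-RANK+ TECs (log2 fold change 3.49, SE 0.26, edgeR adjusted p = 4.01e-06). The CCL21-RANK- libraries, at 2.73 and 2.73 RPKM, lay at the CCL21+RANK- level. *Pax9*, a factor of the same pouch, was at 40.7, 32.9, and 36.4 RPKM in CCL21+RANK- against 22.4, 24.6, and 23.5 RPKM in CCL21-RANK+ TECs, a smaller difference (log2 fold change 0.76, SE 0.11, edgeR adjusted p = 0.000373), and was not called when edgeR tested against 1.5-fold in place of no change (adjusted p = 0.0628). *Eya1*, a cofactor in pouch development, was not called, at a log2 fold change of 0.05. *Hoxa7*, a gene of the same cluster as *Hoxa3*, was at 1.54, 3.18, and 2.22 RPKM in CCL21+RANK- against 0.0303, 0.0624, and 0.00813 RPKM in CCL21-RANK+ TECs, and at 0.0464 and 0.068 RPKM in CCL21-RANK- libraries, so the CCL21+RANK- group was the highest of the 3 (the difference from CCL21-RANK- TECs was not tested). Of the 29 tested HOX genes 3 (*Hoxa2*, *Hoxa3*, and *Hoxa7*) were higher in CCL21+RANK- against 2 (*Hoxb9* and *Hoxc11*) in CCL21-RANK+ TECs, and 16 had 0 counts in CCL21+RANK- TECs. The 2 became 0 without CCL21-RANK+ replicate 1, and the 3 became 5 without CCL21+RANK- replicate 3 and 6 without *Gm26917* and *Gm42418*.

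Effectors of developmental signals were among the CCL21+RANK- factors. *Gli2*, an effector of hedgehog signalling, was at 7.89, 8.82, and 6.59 RPKM in CCL21+RANK- against 0.928, 1.41, and 0.742 RPKM in CCL21-RANK+ TECs (8.22-fold). *Hey1*, a target of Notch signalling, was at 45.2, 46.6, and 60.9 RPKM in CCL21+RANK- against 9.19, 14.7, and 10.2 RPKM in CCL21-RANK+ TECs (4.81-fold), and the CCL21-RANK- libraries were higher still at 75.2 and 75.8 RPKM. *Smad9*, which carries BMP signals, was 5.95-fold higher in CCL21+RANK- TECs, and the family of SMAD, TEAD, and LEF/TCF factors had 8 of 18 genes higher in CCL21+RANK- and 2 (*Lef1* and *Tcf7*) higher in CCL21-RANK+ TECs. *Rarg*, a retinoic acid receptor, was 5.96-fold higher, and 11 of 44 nuclear receptors were higher in CCL21+RANK- against 6 in CCL21-RANK+ TECs, not far from the shares of 18.1% and 18.4% over protein-coding genes. *Nfib* (5.22-fold), *Cux2* (4.54-fold), *Stat4* (4.71-fold), and *Sox12* (3.16-fold) were further examples, and their groups did not overlap. *Klf15*, a factor of metabolic genes, was at 19.6, 23.9, and 29.4 RPKM in CCL21+RANK- against 1.29, 2.64, and 1.39 RPKM in CCL21-RANK+ TECs (log2 fold change 3.87, SE 0.29, edgeR adjusted p = 4.68e-06). *Etv5*, an effector of FGF signalling, was 4.25-fold higher than in CCL21-RANK+ TECs, but the CCL21-RANK- libraries were the highest at 15.7 and 22.2 RPKM. *Foxl2*, a factor of ovarian development, was 12.6-fold higher at 3.09, 1.9, and 1.89 RPKM (log2 fold change 3.66, and 4.55 without CCL21-RANK+ replicate 1). In CCL21-RANK- libraries *Gli2* (7.85 and 6.97 RPKM), *Rarg* (9.97 and 12.5), and *Smad9* (2.69 and 2.42) were near the CCL21+RANK- level. *Nfib* (26.1 and 29.1), *Stat4* (11.5 and 12.2), *Sox12* (9.98 and 14.2), and on average *Klf15* (28.2 and 32.7) were higher there. *Cux2* (0.996 and 1.3) and *Foxl2* (0.323 and 0.394) were lower there than in CCL21+RANK- libraries. The differences from CCL21-RANK- TECs were not tested.

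Further abundant CCL21+RANK- factors were *Jun*, a subunit of AP-1, at 191, 172, and 93.2 RPKM in CCL21+RANK- against 69.7, 61.3, and 50.3 RPKM in CCL21-RANK+ TECs, *Srebf1*, a regulator of lipid synthesis, at 80.5, 83.1, and 87.7 RPKM in CCL21+RANK- against 33.1, 33.1, and 31.9 RPKM in CCL21-RANK+ TECs, and *Zfp703* at 76.3, 77.8, and 104 RPKM in CCL21+RANK- against 26.8, 36.7, and 33.4 RPKM in CCL21-RANK+ TECs. Of 23 AP-1 and immediate early factors 4 (*Jun*, *Maf*, and *Mafg* among them) were higher in CCL21+RANK- against 3 (*Batf*, *Fosl2*, and *Nr4a3*) in CCL21-RANK+ TECs, and these counts moved to 8 and 2 without CCL21+RANK- replicate 3 and to 5 and 1 without CCL21-RANK+ replicate 1. In CCL21-RANK- libraries *Jun* was at 81.4 and 124 RPKM, *Srebf1* at 73.9 and 80.8 RPKM, and *Zfp703* at 78.4 and 89.3 RPKM. The large ZFP zinc-finger family held much of the lean of transcription factors. It had 84 of 369 genes (22.8%) higher in CCL21+RANK- and 12 (3.25%) higher in CCL21-RANK+ TECs, and without it 110 and 101 of the other 492 factors were called. *Zfp648* was the family's largest CCL21+RANK- change at 1.94, 4.02, and 2.92 RPKM in CCL21+RANK- against 0.526, 0.474, and 0.0865 RPKM in CCL21-RANK+ TECs, but was highest in the CCL21-RANK- libraries at 22.5 and 17.1 RPKM. *Pou2f3*, the master factor of tuft cells, went against the maturation list, at 10.8, 9.83, and 10.2 RPKM in CCL21+RANK- against 3.67, 2.93, and 2.94 RPKM in CCL21-RANK+ TECs (log2 fold change 1.82, SE 0.15, edgeR adjusted p = 8.12e-06).

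**Figure D3:**
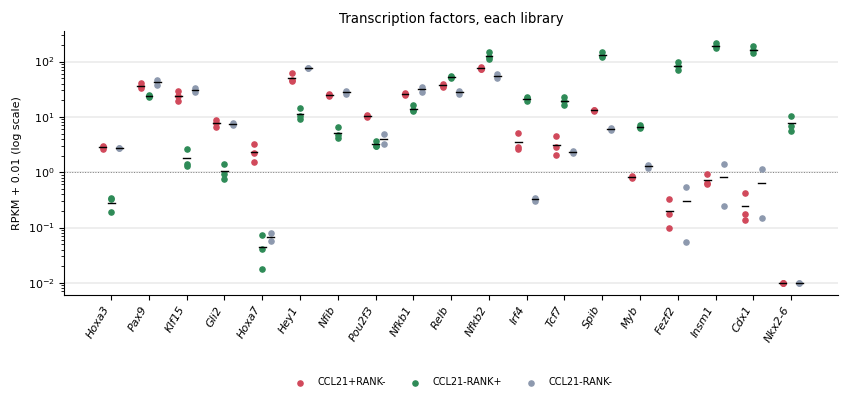
RPKM plus 0.01 (log scale) of transcription factors in each library. Points are libraries, black bars are group means, and the dotted line marks 1 RPKM. The CCL21+RANK- and CCL21-RANK+ libraries do not overlap for any factor shown, and the genes from Myb to Nkx2-6 lie below 1 RPKM in all 3 CCL21+RANK- libraries.

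The subunits of NF-kB, the factor activated by RANK, were called in both directions. *Nfkb1* was at 26.7, 25.3, and 26.1 RPKM in CCL21+RANK- against 16.1, 13.5, and 12.5 RPKM in CCL21-RANK+ TECs (log2 fold change 1.01, SE 0.11, edgeR adjusted p = 4.76e-05), higher in CCL21+RANK- TECs. *Nfkb2*, a subunit of the non-canonical pathway, was at 74.2, 72.1, and 79.3 RPKM in CCL21+RANK- against 148, 113, and 119 RPKM in CCL21-RANK+ TECs (log2 fold change -0.63, SE 0.11, edgeR adjusted p = 0.000855), higher in CCL21-RANK+ TECs, but its call was lost without CCL21-RANK+ replicate 1 at a log2 fold change of -0.55, and when edgeR tested against 1.5-fold (adjusted p = 0.306). *Relb*, its partner, was at 35.99, 34.9, and 40.1 RPKM in CCL21+RANK- against 54.96, 51.8, and 50.6 RPKM in CCL21-RANK+ TECs, without overlap but under the 1.5-fold threshold (log2 fold change -0.39, SE 0.08, edgeR adjusted p = 0.00368). Of the 5 subunits 2 (*Nfkb1* and *Rel*) were called higher in CCL21+RANK- against 1 (*Nfkb2*) in CCL21-RANK+ TECs, with the former count at 1 without CCL21+RANK- replicate 2 or 3 or without CCL21-RANK+ replicate 2 or 3. The former count was also 1 with the size factors of DESeq2, with upper-quartile scaling, and with at least 10 counts in every library. Of 24 adaptors, kinases, and inhibitors of the RANK and NF-kB pathways, 7 were higher in CCL21+RANK- against 8 in CCL21-RANK+ TECs. The largest changes were *Traf1*, an adaptor of TNF receptors, at 0.393, 0.426, and 0.321 RPKM in CCL21+RANK- against 3.45, 1.55, and 1.64 RPKM in CCL21-RANK+ TECs (5.24-fold higher in CCL21-RANK+), and *Tab1*, which activates the kinase TAK1, at 23.1, 18.8, and 21.7 RPKM in CCL21+RANK- against 6.8, 5.01, and 6.19 RPKM in CCL21-RANK+ TECs (3.85-fold higher in CCL21+RANK-).

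To show where letters that NF-kB can bind occur near genes of either group, the motif GGANTTTCC was searched on both strands of the RefSeq promoters of build GRCm38.p6, each 300 bases from 250 before to 50 after a start. It occurred in 412 of 32851 promoters (1.25%), in 48 of 3146 promoters (1.53%) of genes called higher in CCL21+RANK- TECs, and in 54 of 2890 promoters (1.87%) of genes called higher in CCL21-RANK+ TECs. Of the 149 genes named by rule, 112 had a promoter in the table and 5 of them held the motif. These 5 are shown because they include an NF-kB subunit, the interleukin gene *Il13*, and genes of the opposite direction, with matched letters in capitals. For matches before the start, the 250 bases before it are given, and for matches after a start, 30 bases around them. *Nfkb2* has a second listed start, and its match lies 224 bases before that one.
Nfkb2 (chr19:46305696-46305725, + strand): ggtattttcgGGACTTTCCtaagcagcact
Il13 (chr11:53634703-53634952, - strand): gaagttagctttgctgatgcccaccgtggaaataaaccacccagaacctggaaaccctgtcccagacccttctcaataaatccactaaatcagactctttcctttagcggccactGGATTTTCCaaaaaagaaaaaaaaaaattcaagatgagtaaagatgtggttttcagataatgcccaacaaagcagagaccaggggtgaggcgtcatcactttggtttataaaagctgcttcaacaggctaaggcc
Pax9 (chr12:56695491-56695520, + strand): ccagaaacagacggcggaaGGAGTTTCCcg
Tgfbr2 (chr9:116175315-116175344, - strand): ctgttggcgaGGAGTTTCCtgtttccctct
Wnt5b (chr6:119467212-119467461, - strand): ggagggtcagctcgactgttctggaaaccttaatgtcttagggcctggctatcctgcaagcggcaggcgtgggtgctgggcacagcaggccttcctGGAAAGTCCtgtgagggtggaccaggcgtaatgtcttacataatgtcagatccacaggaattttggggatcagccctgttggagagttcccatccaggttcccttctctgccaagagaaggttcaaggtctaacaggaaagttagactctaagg
The match in *Wnt5b* is on the opposite strand of the gene. *Nfkb2* and *Il13* were called higher in CCL21-RANK+ and *Pax9*, *Tgfbr2*, and *Wnt5b* in CCL21+RANK- TECs, so these letters occurred on both sides, and a match is not evidence of binding.

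Receptors of the TNF superfamily leaned to CCL21-RANK+ TECs, with 14 of 25 higher there (beside 18.4% of protein-coding genes) and 6 higher in CCL21+RANK- TECs (beside 18.1%). *Tnfrsf11b* (chromosome 15, 54250619 to 54278484), which encodes osteoprotegerin, the soluble decoy receptor that binds the RANK ligand, was at 0.0892, 0.131, and 0.122 RPKM in CCL21+RANK- against 62.2, 37.97, and 37.7 RPKM in CCL21-RANK+ TECs (log2 fold change -8.53, SE 0.34, edgeR adjusted p = 2.25e-07). No CCL21+RANK- library was above 0.131 RPKM. *Cd40*, a receptor for signals from T cells, was at 10.7, 9.55, and 8.45 RPKM in CCL21+RANK- against 42.97, 23.7, and 30.99 RPKM in CCL21-RANK+ TECs (log2 fold change -1.63, SE 0.19, edgeR adjusted p = 7.6e-05). *Ltbr* (chromosome 6, 125306571 to 125313885), the lymphotoxin receptor that signals through non-canonical NF-kB, changed the opposite way at 40.6, 44.2, and 45.2 RPKM in CCL21+RANK- against 11.8, 12.3, and 10.4 RPKM in CCL21-RANK+ TECs (log2 fold change 2.04, SE 0.12, edgeR adjusted p = 1.36e-06). *Ngfr*, the low-affinity neurotrophin receptor, was also higher in CCL21+RANK- TECs (6.49-fold).

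The growth factor receptors *Fgfr2*, *Egfr*, and *Ddr1* were higher in CCL21+RANK- TECs, although receptor tyrosine kinases as a family were called in both directions. *Fgfr2*, whose ligands support growth of the thymic epithelium, was at 41.4, 39.4, and 43.5 RPKM in CCL21+RANK- against 6, 10.5, and 7.18 RPKM in CCL21-RANK+ TECs (log2 fold change 2.5, SE 0.21, edgeR adjusted p = 1.01e-05). *Egfr* was at 23.6, 24.2, and 25.1 RPKM in CCL21+RANK- against 6.08, 9.41, and 7.6 RPKM in CCL21-RANK+ TECs, and *Ddr1*, a receptor for collagens, was at 123, 103, and 124 RPKM in CCL21+RANK- against 32.3, 33.9, and 30.1 RPKM in CCL21-RANK+ TECs. These genes differed 3.4-fold and 3.94-fold, and the CCL21-RANK- libraries resembled the CCL21+RANK- libraries, with *Fgfr2* at 41.2 and 47.7 RPKM. *Erbb4* was 13.3-fold higher, but was 3.87 times as high in CCL21+RANK- replicate 1 as in the mean of replicates 2 and 3 and was not called without replicate 1 because its mean was then under 1 RPKM (log2 fold change 3.74, and 2.78 without that library). The family had 8 of 40 genes higher in CCL21+RANK- against 10 in CCL21-RANK+ TECs, near the protein-coding shares. The largest change of the latter was *Pdgfrb*, a mesenchymal receptor and 1 of the mesenchyme markers, at 0.0245, 0.175, and 0.0232 RPKM in CCL21+RANK- against 6.82, 4.06, and 4.83 RPKM in CCL21-RANK+ TECs.

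Receptors for TGF-beta, BMP, Notch, Wnt, and hedgehog signals leaned to CCL21+RANK- TECs. *Tgfbr2* was at 13.05, 12.7, and 15.3 RPKM in CCL21+RANK- against 1.13, 2.01, and 1.73 RPKM in CCL21-RANK+ TECs (log2 fold change 3.18, SE 0.21, edgeR adjusted p = 2.55e-06), and *Bmpr1a* was at 20.8, 16.9, and 21.9 RPKM in CCL21+RANK- against 10.01, 13.2, and 11.9 RPKM in CCL21-RANK+ TECs (1.82-fold). In this family 6 of 14 genes were higher in CCL21+RANK- and 1 was higher in CCL21-RANK+ TECs. That gene, *Acvr1c*, was at 0.101, 0.0515, and 0.0742 RPKM in CCL21+RANK- against 2.68, 2.83, and 2.39 RPKM in CCL21-RANK+ TECs (31.9-fold). *Boc*, a hedgehog co-receptor, was at 50.02, 40.6, and 47.1 RPKM in CCL21+RANK- against 4.11, 6.91, and 5.12 RPKM in CCL21-RANK+ TECs (log2 fold change 3.2, SE 0.20, edgeR adjusted p = 1.97e-06), and 13 of 25 Wnt and hedgehog receptors were higher in CCL21+RANK- against 4 (*Cdon*, *Fzd10*, *Kremen2*, and *Lrp5*) in CCL21-RANK+ TECs. The Wnt receptor *Fzd10* was at 2.11, 1.2, and 1.94 RPKM in CCL21+RANK- against 10.2, 10.4, and 10.8 RPKM in CCL21-RANK+ TECs. Of 9 Notch receptors and ligands 6 were higher in CCL21+RANK- TECs, where the Notch ligand *Dll4* was at 58.5, 71.6, and 90.2 RPKM, and 1, the ligand *Dll3*, was 31.9-fold higher in CCL21-RANK+ TECs. The CCL21-RANK- libraries were higher still for *Dll4* at 110 and 119 RPKM and for *Tgfbr2* at 15.7 and 17 RPKM. *Boc* was lower there than in CCL21+RANK- libraries, at 33.8 and 37.9 RPKM. *Notch1*, at a log2 fold change of -0.58, lay just under the fold threshold, and without CCL21+RANK- replicate 2 or CCL21-RANK+ replicate 1 it was called with *Dll3*, which made 2 of 9. The counts were 5 and 2 with the size factors of DESeq2, with upper-quartile scaling, and with at least 10 counts in every library, and 5 and 3 without *Gm26917* and *Gm42418*. *Notch3* was only just over the fold threshold at 1.51-fold and lost its call under 13 of 16 other settings.

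Chemokine receptors were the reverse, with 6 of 20 higher in CCL21-RANK+ against 0 in CCL21+RANK- TECs, beside 18.4% and 18.1% of protein-coding genes. *Ccr7*, the receptor for CCL21 itself, had 1 count in the CCL21+RANK- libraries together and was at 10.5, 3.93, and 6 RPKM in CCL21-RANK+ libraries, 2237-fold higher in summed CPM (counting interval 401 to 88383). *Ccr10*, a receptor for epithelial chemokines, was at 5.91, 6.16, and 6.84 RPKM, with the 3 CCL21-RANK+ libraries close together, and had 1 count in CCL21+RANK- TECs. *Il23r*, a cytokine receptor of lymphocytes, followed at 5.54, 1.65, and 2.46 RPKM, again against 1 count. *Adgre1*, which encodes the macrophage antigen F4/80, was at 3.29, 2.12, and 1.18 RPKM against 2 counts in CCL21+RANK- TECs, and led the myeloid marker list. In the CCL21-RANK- libraries *Ccr10* was at 0.112 and 0.0566 RPKM and the other 3 genes were lower.

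Cytokine and interferon receptors were called in both directions, 16 of 54 higher in CCL21+RANK- against 19 in CCL21-RANK+ TECs. *Lifr*, the receptor for leukaemia inhibitory factor, was at 130.3, 90.8, and 109 RPKM in CCL21+RANK- against 16.05, 26.4, and 20.8 RPKM in CCL21-RANK+ TECs (log2 fold change 2.49, SE 0.22, edgeR adjusted p = 1.18e-05). *Ghr*, the growth hormone receptor, was 5.87-fold higher in CCL21+RANK- TECs. *Ifngr1*, a subunit of the interferon gamma receptor, was at 17.4, 11.8, and 14.01 RPKM in CCL21+RANK- against 9.28, 10.3, and 10.1 RPKM in CCL21-RANK+ TECs, 1.58-fold higher, and lost its call in 7 of 16 other settings, among them without CCL21+RANK- replicate 1 (log2 fold change 0.50) and without CCL21-RANK+ replicate 1 (0.57). *Irf8*, a factor of interferon responses, was 1.62-fold higher and lost its call without CCL21-RANK+ replicate 3 (0.55), with at least 10 counts in every library (0.56), and when edgeR tested against 1.5-fold (adjusted p = 0.199).

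G protein-coupled receptors, pathogen sensors, integrins, and guidance receptors showed opposite members within each family. *S1pr3*, for sphingosine-1-phosphate, was at 93.6, 84.5, and 113 RPKM in CCL21+RANK- against 17.1, 24.5, and 22.2 RPKM in CCL21-RANK+ TECs, and *Lpar3*, for lysophosphatidic acid, at 9.44, 8.44, and 11.1 RPKM in CCL21+RANK- against 0.963, 1.09, and 0.835 RPKM in CCL21-RANK+ TECs, both higher in CCL21+RANK- TECs. In the same family the prostaglandin receptor *Ptger2* was 65.3-fold higher in CCL21-RANK+ TECs (log2 fold change -6.03, and -7.38 without CCL21+RANK- replicate 1). *Ednrb*, the endothelin receptor, was 10.2-fold higher and the adrenergic receptor *Adrb1* 9.4-fold higher in CCL21+RANK- TECs. The log2 fold change of *Adrb1* was 3.23, and 4.57 without CCL21-RANK+ replicate 1. In contrast, the somatostatin receptor *Sstr5*, at 0 counts in CCL21+RANK- TECs, was at least 61.5-fold (at least 40.4-fold without CCL21-RANK+ replicate 1) higher in CCL21-RANK+ TECs and was not called without CCL21-RANK+ replicate 1. *F2rl1*, a receptor cleaved by proteases, was at 11.9, 6.01, and 6.08 RPKM in CCL21+RANK- against 42.4, 44.3, and 42.5 RPKM in CCL21-RANK+ TECs, higher in CCL21-RANK+ TECs. The orphan receptors *Gpr45* (7.76-fold higher in CCL21+RANK-) and *Gpr50* (at 3.87, 1.7, and 1.95 RPKM in CCL21-RANK+ libraries against 2 counts in the CCL21+RANK- libraries) also parted.

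Among pathogen sensors, *Ddx58*, which encodes the RNA sensor RIG-I, was at 14.9, 16.8, and 18.4 RPKM in CCL21+RANK- against 2.87, 3.76, and 3.26 RPKM in CCL21-RANK+ TECs (5.47-fold), and the inflammasome gene *Nlrp6* was 471-fold higher in summed CPM (counting interval 130.0 to 3896) in CCL21-RANK+ TECs, although it was not called without CCL21-RANK+ replicate 1 and was then 241-fold higher. *Itgb7*, an integrin subunit, was at 18.6, 25.9, and 34.8 RPKM in CCL21+RANK- against 2.02, 4.49, and 2.15 RPKM in CCL21-RANK+ TECs, higher in CCL21+RANK- TECs. In CCL21-RANK- libraries *Itgb7* was at 34.1 and 37.9 RPKM. *Itgb8*, which activates latent TGF-beta, was at 0.0939, 0.057, and 0.0984 RPKM in CCL21+RANK- against 6.75, 4.42, and 6.16 RPKM in CCL21-RANK+ TECs and *Itga6*, a receptor for laminin, at 18.7, 12.04, and 14.2 RPKM in CCL21+RANK- against 61.1, 40.2, and 45.8 RPKM in CCL21-RANK+ TECs, both higher in CCL21-RANK+ TECs. None of the values of *Itga6* was a whole number, so its reads were shared with other loci and its level is less certain. Of the guidance receptors, *Unc5b* was 3.95-fold higher in CCL21+RANK- and *Epha3* 22.3-fold higher in CCL21-RANK+ TECs.

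**Figure D4:**
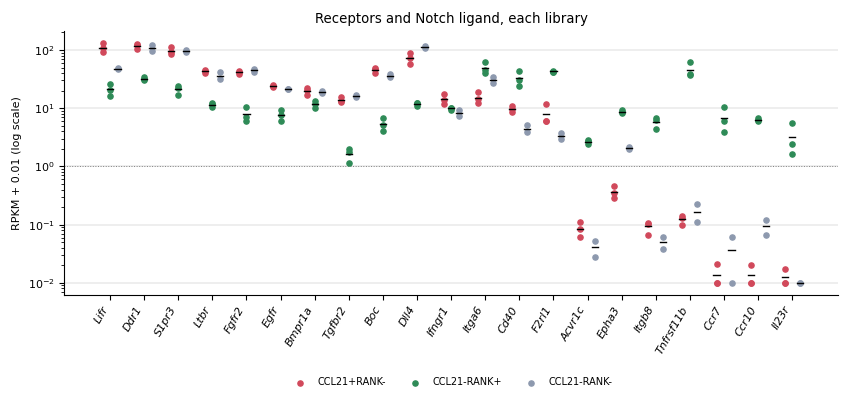
RPKM plus 0.01 (log scale) of receptors and the Notch ligand Dll4 in each library. Points are libraries, black bars are group means, and the dotted line marks 1 RPKM. Every receptor from Lifr to Ifngr1 is higher in all 3 CCL21+RANK- libraries, and every receptor from Itga6 to Il23r is higher in all 3 CCL21-RANK+ libraries.

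Most called chemokines were higher in CCL21-RANK+ TECs. *Ccl25* (chromosome 8, 4325210 to 4360020), which recruits thymocyte progenitors, was at 167, 131, and 147 RPKM in CCL21+RANK- against 35.4, 18.5, and 15.8 RPKM in CCL21-RANK+ TECs (log2 fold change 2.81, SE 0.26, edgeR adjusted p = 1.49e-05), and was with *Cx3cl1* and *Cxcl16* among 3 of 29 chemokines higher in CCL21+RANK- TECs. In contrast, 14 chemokines were higher in CCL21-RANK+ TECs, 8 of 29 without CCL21-RANK+ replicate 1. *Ccl22*, a ligand of CCR4, was at 0.0144, 0.0187, and 0.0156 RPKM in CCL21+RANK- against 17.7, 6.25, and 6.71 RPKM in CCL21-RANK+ TECs (log2 fold change -9.09, SE 0.66, edgeR adjusted p = 3.79e-06), and its log2 fold change was -8.5 without CCL21-RANK+ replicate 1. Its companion *Ccl17* had 0 counts in CCL21+RANK- libraries and was at 2.34, 0.233, and 0.956 RPKM in CCL21-RANK+ libraries, a mean of 1.18 ± 1.07 (SD, n = 3), and was at least 10.7-fold (at least 5.39-fold without CCL21-RANK+ replicate 1) higher. Its call rests on 96 counts, and without CCL21-RANK+ replicate 1 or 3, or with only the 6 libraries compared, *Ccl17* did not pass the expression filter. *Ccl9* was also at 0 in CCL21+RANK- TECs and at least 104-fold higher. *Ccl17* and *Ccl9* thus lay below detection in the CCL21+RANK- group. *Ccl19*, the other ligand of CCR7, was at 4.41, 2.73, and 3.14 RPKM in CCL21+RANK- against 29.7, 8.44, and 14.4 RPKM in CCL21-RANK+ TECs (log2 fold change -2.2, SE 0.40, edgeR adjusted p = 0.00121), the opposite direction to *Ccl21a*, but none of its values was whole because its reads match near-identical copies.

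Interleukins and haematopoietic cytokines were called in both directions. *Kitl*, the stem cell factor that supports early thymocytes, was at 11.3, 15.5, and 15.6 RPKM in CCL21+RANK- against 2.59, 3.65, and 2.85 RPKM in CCL21-RANK+ TECs (log2 fold change 2.34, SE 0.19, edgeR adjusted p = 6.98e-06), and was the largest change among 7 of 48 interleukins and haematopoietic cytokines higher in CCL21+RANK- TECs. The CCL21-RANK- libraries were higher still for *Kitl*, at 20.4 and 20.9 RPKM. *Il13* (chromosome 11, 53631324 to 53634702), a type 2 cytokine, was the largest of the 11 higher in CCL21-RANK+ TECs, at 33.9, 10.7, and 17.4 RPKM against 3 counts in all CCL21+RANK- libraries, 1387-fold higher in summed CPM (counting interval 474 to 6729.7), or 891-fold without CCL21-RANK+ replicate 1. These shares, 14.6% and 22.9%, lie near those of protein-coding genes, and the 11 became 7 without CCL21-RANK+ replicate 1. *Il15* and *Tslp*, which other TECs are known to express, were not called. *Il15* was at 2.81, 3.97, and 2.58 RPKM in CCL21+RANK- against 2.8, 2.87, and 2.45 RPKM in CCL21-RANK+ TECs. *Tslp* was at 0.0126, 0.0653, and 0.0818 RPKM in CCL21+RANK- against 0.511, 0.345, and 0.211 RPKM in CCL21-RANK+ TECs (log2 fold change -2.6, SE 0.98, edgeR adjusted p = 0.0474), and its mean was under 1 RPKM in both groups. Of 15 TNF-family ligands 4 (*Cd70*, *Lta*, *Ltb*, and *Tnfsf9*) were higher in CCL21-RANK+ against 0 in CCL21+RANK- TECs, beside 18.4% and 18.1% of protein-coding genes, led by *Lta* at 3.04, 0.75, and 1.01 RPKM against 1 count, a call lost without CCL21-RANK+ replicate 1. *Tnfsf11*, the gene for the RANK ligand, was at 0.0824, 0.0194, and 0.0649 RPKM in CCL21+RANK- against 0.484, 0.428, and 0.565 RPKM in CCL21-RANK+ TECs, and was not called because its mean was under 1 RPKM, although the groups did not overlap (log2 fold change -3.0, SE 0.74, edgeR adjusted p = 0.00696).

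Morphogens and growth factors were called in both directions. *Wnt4*, a regulator of *Foxn1* in TECs, was at 36.6, 35.6, and 32.4 RPKM in CCL21+RANK- against 11.3, 7.94, and 7.06 RPKM in CCL21-RANK+ TECs (log2 fold change 2.13, SE 0.18, edgeR adjusted p = 9.65e-06), higher in CCL21+RANK- TECs. *Wnt10b* was at 0.276, 1.58, and 1.12 RPKM in CCL21+RANK- against 33.9, 39.3, and 45.5 RPKM in CCL21-RANK+ TECs (log2 fold change -5.21, SE 0.53, edgeR adjusted p = 3.05e-05), with a log2 fold change of -5.8 without CCL21+RANK- replicate 2, and the Wnt inhibitor *Sost*, with 0 counts in CCL21+RANK- TECs, was at least 128-fold (at least 68.7-fold without CCL21-RANK+ replicate 1) higher, both in CCL21-RANK+ TECs. Of 36 Wnt ligands and modulators 11 were higher in CCL21-RANK+ against 5 (*Sfrp1*, *Wnt4*, *Wnt5a*, *Wnt5b*, and *Wnt9a*) in CCL21+RANK- TECs. *Fgf21*, an endocrine FGF of liver, was higher in CCL21-RANK+ TECs, at 8.39, 6.93, and 6.56 RPKM in CCL21+RANK- against 241, 103, and 134 RPKM in CCL21-RANK+ TECs (log2 fold change -4.3, SE 0.28, edgeR adjusted p = 2.18e-06), and *Fgf4* was at least 57.2-fold (at least 35.7-fold without CCL21-RANK+ replicate 1) higher from 0 counts, but was not called without CCL21-RANK+ replicate 1. *Bmp4* was low in both groups at 0.268, 0.406, and 0.0726 RPKM in CCL21+RANK- against 0.396, 0.284, and 0.114 RPKM in CCL21-RANK+ TECs and was not called, whereas the CCL21-RANK- libraries had 1.28 and 1.62 RPKM. *Ltbp3*, which binds latent TGF-beta, was at 47.5, 36.98, and 47.5 RPKM in CCL21+RANK- against 5.42, 6.47, and 5.5 RPKM in CCL21-RANK+ TECs, and *Igfbp2*, which binds insulin-like growth factors, at 147, 99.5, and 87.9 RPKM in CCL21+RANK- against 21.03, 13.3, and 8.68 RPKM in CCL21-RANK+ TECs, both higher in CCL21+RANK- TECs (8.18-fold and 8.56-fold, respectively). Among EGF-family ligands 6 of 11 were higher in CCL21-RANK+ TECs, led by *Areg*, which encodes amphiregulin, at least 50.8-fold (at least 26.1-fold without CCL21-RANK+ replicate 1) higher from 0 counts, and 1 was higher in CCL21+RANK- TECs, *Egf*, which was not called without CCL21+RANK- replicate 1.

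Matrix and guidance proteins included abundant genes of CCL21+RANK- TECs. *Tnc* (tenascin C) was at 1416, 1079.8, and 1002 RPKM in CCL21+RANK- against 385, 407, and 309 RPKM in CCL21-RANK+ TECs (log2 fold change 1.79, SE 0.20, edgeR adjusted p = 6.05e-05). *Fn1* (fibronectin) was at 491, 449.6, and 422 RPKM in CCL21+RANK- against 36.1, 54.8, and 39.2 RPKM in CCL21-RANK+ TECs (log2 fold change 3.5, SE 0.22, edgeR adjusted p = 1.9e-06), and *Gas6*, a ligand of the TAM receptors that clear dying cells, at 385, 390.0, and 391 RPKM in CCL21+RANK- against 81.9, 90.3, and 70.8 RPKM in CCL21-RANK+ TECs (log2 fold change 2.38, SE 0.14, edgeR adjusted p = 1.36e-06). In all 3 genes the groups did not overlap. Of 52 matricellular and basement membrane proteins 20 were higher in CCL21+RANK- against 14 in CCL21-RANK+ TECs, and of 55 collagens and laminins 17 and 13. *Mmp2*, a gelatinase, was 16.3-fold higher in CCL21+RANK- TECs at 29.7, 24.6, and 31.8 RPKM, and *Rgma*, a guidance protein, was 8.25-fold higher. *Fgf14*, listed with the FGF ligands but acting inside cells, was 5.83-fold higher at 49.5, 63.9, and 73.1 RPKM. On the CCL21-RANK+ side the axon repellent *Slit1* was at 0.0651, 0.0698, and 0.0674 RPKM in CCL21+RANK- against 30.9, 30.4, and 33.95 RPKM in CCL21-RANK+ TECs (log2 fold change -8.76, SE 0.22, edgeR adjusted p = 2.66e-08), and its 3 CCL21-RANK+ libraries were close together. *Col10a1*, the collagen of hypertrophic cartilage, and *Crispld2* had 0 counts in CCL21+RANK- TECs and were at least 136-fold (at least 67.1-fold without CCL21-RANK+ replicate 1) and at least 136-fold (at least 70.7-fold without CCL21-RANK+ replicate 1) higher in CCL21-RANK+ TECs, though *Crispld2* was not called without CCL21-RANK+ replicate 1.

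Of 54 antimicrobial and mucosal proteins 29 were higher in CCL21-RANK+ TECs, 20 without CCL21-RANK+ replicate 1, and of 45 peptide hormones and neuropeptides 23 were higher there and 5 (*Chga*, *Edn3*, *Penk*, *Pth*, and *Stc2*, of which *Chga* and *Pth* are parathyroid markers) in CCL21+RANK- TECs. *Calcb*, a calcitonin gene-related peptide of neurons, was at 0.199, 0.0688, and 0.0287 RPKM in CCL21+RANK- against 130.4, 75.1, and 79.2 RPKM in CCL21-RANK+ TECs (log2 fold change -9.7, SE 0.65, edgeR adjusted p = 2.53e-06), and its log2 fold change was -10.8 without CCL21+RANK- replicate 1. *Pyy*, a gut hormone, had 0 counts in CCL21+RANK- TECs and was at 14.5, 3.32, and 4.11 RPKM in CCL21-RANK+ libraries, at least 81.4-fold (at least 41.4-fold without CCL21-RANK+ replicate 1) higher. *Reg3b*, an antimicrobial lectin of intestine, was likewise at 0 and at 6.25, 1.31, and 1.97 RPKM, at least 64.04-fold (at least 33.03-fold without CCL21-RANK+ replicate 1) higher. *Saa1*, an acute-phase protein of liver, was at least 89.6-fold (at least 35.6-fold without CCL21-RANK+ replicate 1) higher from 0 counts and led 13 of 27 complement and acute-phase genes, but was not called without CCL21-RANK+ replicate 1. *Klk1*, a kallikrein of salivary gland and kidney, was at least 56.8-fold (at least 21.6-fold without CCL21-RANK+ replicate 1) higher from 0 counts, and 38 of 124 proteases and inhibitors were higher in CCL21-RANK+ against 25 in CCL21+RANK- TECs. The complement proteases *C1ra* and *C1s1* were the 2 complement genes higher in CCL21+RANK- TECs, with *C1ra* at 10.01, 6.58, and 5.9 RPKM in CCL21+RANK- against 0.82, 0.776, and 0.243 RPKM in CCL21-RANK+ TECs, and *Edn3*, a ligand of *Ednrb*, was at 2.59, 1.43, and 1.53 RPKM in CCL21+RANK- against 0.272, 0.063, and 0.0512 RPKM in CCL21-RANK+ TECs. *Muc3a* was the only mucosal gene called in CCL21+RANK- TECs, 1.56-fold higher, and lost its call under 13 of 16 other settings.

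**Figure D5:**
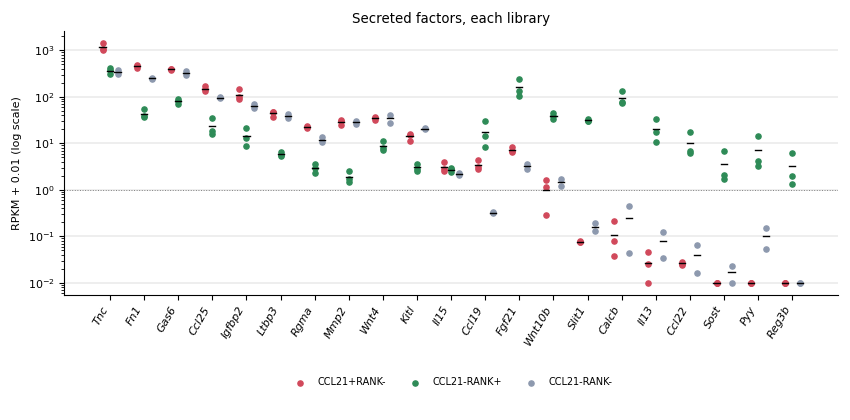
RPKM plus 0.01 (log scale) of secreted factors in each library. Points are libraries, black bars are group means, and the dotted line marks 1 RPKM. Genes from Tnc to Kitl are higher in all 3 CCL21+RANK- libraries, Il15 overlaps, and genes from Ccl19 to Reg3b are higher in all 3 CCL21-RANK+ libraries, with Sost, Pyy, and Reg3b at 0 in CCL21+RANK- TECs.

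Replicate 1 carried much of the level of secreted CCL21-RANK+ genes. Of the 218 secreted factors called higher in CCL21-RANK+ TECs, replicate 1 was the highest of the 3 libraries for 193, and for 131 (60.1%) it was over 2 times the mean of replicates 2 and 3. The share was 23.5% of receptors, 16.8% of transcription factors, and 23.9% of all called protein-coding genes of this direction. The ratio was 5.89 for *Klk1*, 5.54 for *Saa1*, 1.69 for *Calcb*, and 0.96 for *Slit1*. Without this library 164 secreted factors were called higher in CCL21-RANK+ TECs in place of 218, 92 receptors in place of 102, and 98 transcription factors in place of 113. In that replicate the mesenchyme, myeloid, B lineage, T lineage, endothelial, neural crest, and thyroid and C cell marker sums were also the highest of the 3, and their part in these results was not tested.

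Replicate 1 was the highest CCL21+RANK- library for 79 of the 122 secreted factors called higher in these TECs. Over all 3066 such protein-coding genes replicate 3 was the highest more often, for 1612 against 1192 with replicate 1, as it was for 108 of 194 transcription factors and 60 of 105 receptors. For the parathyroid markers replicate 1 was the highest. Replicate 1 was 3.42 times the mean of replicates 2 and 3 for *Pth* and 4.28 times for *Chga*. Of the secreted factors named, *Sparcl1* had a ratio of 4.55, the collagen gene *Col4a6* 3.73, the protease inhibitor *Spink8* 3.32, *Egf* 3.2, and *Wnt5b* 2.26. By contrast the ratio was 1.13 for *Fn1*, 0.985 for *Gas6*, 1.2 for *Ccl25*, 0.729 for *Kitl*, 0.999 for *Fgfr2*, and 1.02 for *Hoxa3*. Over 2 times was reached by 12 of 122 secreted factors, 4 of 105 receptors, and 3 of 194 transcription factors called higher in CCL21+RANK- TECs, beside 81 of 3066 protein-coding genes (2.64%). Without CCL21+RANK- replicate 1, 108 secreted factors, 101 receptors, and 193 transcription factors were called higher in CCL21+RANK- TECs. *Sparcl1*, *Col4a6*, *Spink8*, and *Wnt5b* remained called, and the part of parathyroid cells in their levels was not tested.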

How the data were processed

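RNA was sequenced from 8 libraries of sorted E17 TECs, and the 6 libraries of CCL21+RANK- and CCL21-RANK+ cells were compared. The authors deposited one table of RSEM expected counts, which are estimates that divide a read matching several genes among them and were not normalized. Per the labels, the submitters' processing notes name bcl2fastq 2.20, Trimmomatic, STAR 2.5.1, RSEM 1.3.1, and mm10. The expected counts were rounded and fitted in edgeR 4.0.16 under R 4.3.3 (TMM, default expression filter, quasi-likelihood F test, Benjamini-Hochberg adjustment over 21451 genes), with 1 model of 3 group means over all 8 libraries and no batch term. A gene was called when its adjusted p was under 0.05, its change was over 1.5-fold, and the higher group's mean exceeded 1 RPKM. The 3 thresholds are those of the study, and applying the RPKM threshold to the mean of the higher group was chosen here. RPKM used library totals and summed exon lengths of GENCODE M21 (GRCm38), which all 55450 gene identifiers matched.

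Totals ranged from 42751839 to 59677315 counts in the 6 libraries. Counts of 3 or fewer per library were taken as the floor. A fold against a group at 0 was computed against that floor as a lower bound on mean CPM, and ratios over 1 to 3 counts carry a conditional binomial interval. Both cover counting error only, since reads were not molecules. An exact permutation test of 3 against 3 libraries cannot go below p = 0.1 and was not used.

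Genes were grouped in 3 classes with 46 lists, and 1 pathway list was kept apart from the classes. The 20 genes plotted by the study were left out of the class counts. Named genes were, in each class and direction, the 5 called genes with the largest log2 fold change (mean CPM of at least 5, with 3 same-numbered pairs moving alike) and the 3 with the highest mean RPKM, in each family the called gene with the largest change in each direction, and a list of genes with known roles, leaving out parathyroid markers, predicted genes, and pseudogenes. Members named beside counts of 5 or fewer, *Notch1*, and marker genes were chosen after their values were seen. Single values of a few listed genes are not reported here. The members, classes, and lists were chosen with earlier results of these data known. The test was also run on simulated counts, and the outcome is not reported here. Alternatives were the Wald test of DESeq2 1.42.0, its size factors, upper-quartile scaling, other filters and thresholds, only the 6 libraries, a replicate block, leaving out *Gm26917* and *Gm42418*, and leaving out each library. Figures were drawn with matplotlib 3.10.9.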

Additional observations from a re-analysis of the deposited data

How the results depend on the processing

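The 6617 calls became 11516 with the adjusted p-value alone, 6558 of them higher in CCL21-RANK+ TECs. That setting gave 517 transcription factors (253 higher in CCL21-RANK+ TECs), 354 receptors (225), and 371 secreted factors higher in CCL21-RANK+ TECs, because genes of low level or small change then count. With at least 10 counts in every library, which leaves fewer genes to test, 218 secreted factors were called, 106 of them higher in CCL21-RANK+ TECs. Leaving out each library in turn gave 6202 to 6715 calls, and under every setting 0 genes were called in the direction opposite to the one given. The size factors of DESeq2 gave 2942 calls higher in CCL21+RANK- and 3546 higher in CCL21-RANK+ TECs.

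With the replicate number as a replicate block, 6616 genes were called, 6524 of them shared. The deviations of same-numbered libraries correlated at 0.126, 0.0485, and 0.0707 across genes, so the numbers were not taken to pair the libraries, although the rule for named genes asked that same-numbered libraries differ in 1 direction. Of the 149 named genes, 19 lost their call under at least 1 setting that tested them, and genes that a filter took out, such as *Ccl17* and those at 0 counts in a group under the filter of at least 10 counts, are not among these. All are described in the report with the exception of *Gdf3* and *Nr4a3*, which were lost without CCL21-RANK+ replicate 1. A further 2 that were not called changed sign. The log2 fold change of *Bmp4* was -0.036 with DESeq2's size factors, -0.017 with upper-quartile scaling, -0.0318 in DESeq2's Wald test, -0.0739 with the replicate block, and -0.569 to 0.5301 without 1 library. That of *Eya1* was -0.038, -0.0304, and -0.0378 under the first 3 of these, -0.0001 with no expression filter, -0.0789 with at least 10 counts, and -0.0254 to 0.0766 without 1 library. The cause was not tested. Depth limits the genes at or under 3 counts per library, for which only bounds were given.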
